A study of Mus musculus with 12 samples.

Results

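The genes described are 4 connexins (Gja1, Gja4, Gja5 and Gjc1) and 6 proteins of the intercalated disc's mechanical junctions (Cdh2, Dsp, Pkp2, Jup, Dsg2 and Dsc2). They were chosen by name, with earlier results of these data known. All 10 were measured, among 20352 genes in all, by 125 of the table's 241576 probesets. Their RNA was compared between the border zone of an infarct, the heart muscle beside the injury, and the same site of hearts that had sham surgery. The animals were C57BL/6J mice, 12 weeks old, and tissue was collected 2 weeks after the operation. No transgene, deletion or drug is named for either group. Each group held 6 arrays, which the series design calls biological replicates, and the number of arrays limits the precision of every value.

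The intercalated disc joins heart muscle cells end to end. Gap junctions, built of connexins, pass current between the cells, while adherens junctions and desmosomes hold them together and anchor actin and desmin filaments. Loss or sideways displacement of connexin 43 in the border zone is a classic feature of infarcted hearts, mostly described for the protein, and inherited defects of desmosome genes cause arrhythmogenic cardiomyopathy. RNA arrays measure neither where a protein lies nor how much of it there is.

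Gja1 and Gja5 encode connexin 43, the main connexin of working ventricular muscle, and connexin 40, the connexin of atria, fast conduction fibres and arterial endothelium. Their promoters are shown because the fold change of these genes is what the connexin comparison turns on. The sequences are the 250 bases before the RefSeq start on GRCm38.p6, both on the plus strand, at chr10:56377050-56377299 for Gja1 and chr3:97032152-97032401 for Gja5. Capitals mark a match to TGAGTCA, the AP-1 motif, in Gja1, and to the Sp1 motif CCGCCC, read on the other strand, in Gja5.
Gja1: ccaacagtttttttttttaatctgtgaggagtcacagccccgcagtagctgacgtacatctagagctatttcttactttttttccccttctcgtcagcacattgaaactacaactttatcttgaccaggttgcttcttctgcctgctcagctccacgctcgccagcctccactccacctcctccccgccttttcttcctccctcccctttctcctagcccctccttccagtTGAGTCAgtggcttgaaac
Gja5: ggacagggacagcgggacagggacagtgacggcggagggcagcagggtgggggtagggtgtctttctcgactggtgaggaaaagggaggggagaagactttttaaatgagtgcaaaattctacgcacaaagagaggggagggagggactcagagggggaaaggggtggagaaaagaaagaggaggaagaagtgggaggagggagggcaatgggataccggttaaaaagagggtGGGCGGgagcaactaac
The Gja1 match lies 19 to 13 bases before the start, and 4.46% of the 32851 promoters of the same length hold these letters on either strand. The Gja5 match lies 17 to 12 bases before the start, and 32.7% of promoters hold one. The T-box half-site AGGTGT, found in 11.8% of promoters, was in neither window. No match overlapped another. The 3 motifs were picked after the sequences were seen, and a match is a description, not a binding site or a cause.

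The 12 arrays had similar medians, 6.997 to 7.026 in sham and 7.045 to 7.058 in infarcted hearts on the log2 scale. The labelled tissue was checked against its markers. The mean level of 12 heart muscle cell genes was 12.97 to 13.02 in sham and 12.87 to 12.95 in infarcted tissue, bright in every array but not overlapping between the groups, and none of these genes passed the test. All 10 fibroblast markers and 9 of 10 macrophage markers rose, with median log2 changes of 1.69 and 0.76. In bulk tissue, fewer cells of a type and less RNA per cell cannot be told apart. Infarcted replicates 4, 5 and 6 stood apart in the atrial genes Sln, at 5.37 to 6.57 against a sham range of 4.16 to 5.02, and Myl4, at 9.45 to 11.30 against 7.69 to 8.95. Infarcted replicates 1, 2 and 3 lay within the sham range of both. In Myl7, another atrial gene, replicate 6 lay at 7.06, inside the sham range of 5.35 to 7.24, and replicates 4 and 5 lay above it. These 3 of 8 atrial markers were singled out after their values were seen. Of all genes, 2050 were higher and 2074 lower at a Benjamini-Hochberg adjusted p under 0.05 in limma. The split was 1748 and 2956 with arrays centred on their medians. It was 3238 and 925 with arrays centred on the heart muscle cell genes, a setting that moved the median change of all genes by 0.104.

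Among the 10 genes, Gja5 and Gjc1 rose and Dsg2 fell. Over all genes 20.3% were called, 10.1% as higher and 10.2% as lower, and a count of 3 in 10 is no result about the junction genes as a set. Their median log2 change was 0.04 against -0.04 for all genes, and their median absolute change was 0.15 against 0.14. The following values run from the channel proteins to the adhesive ones.

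**Figure D1:**
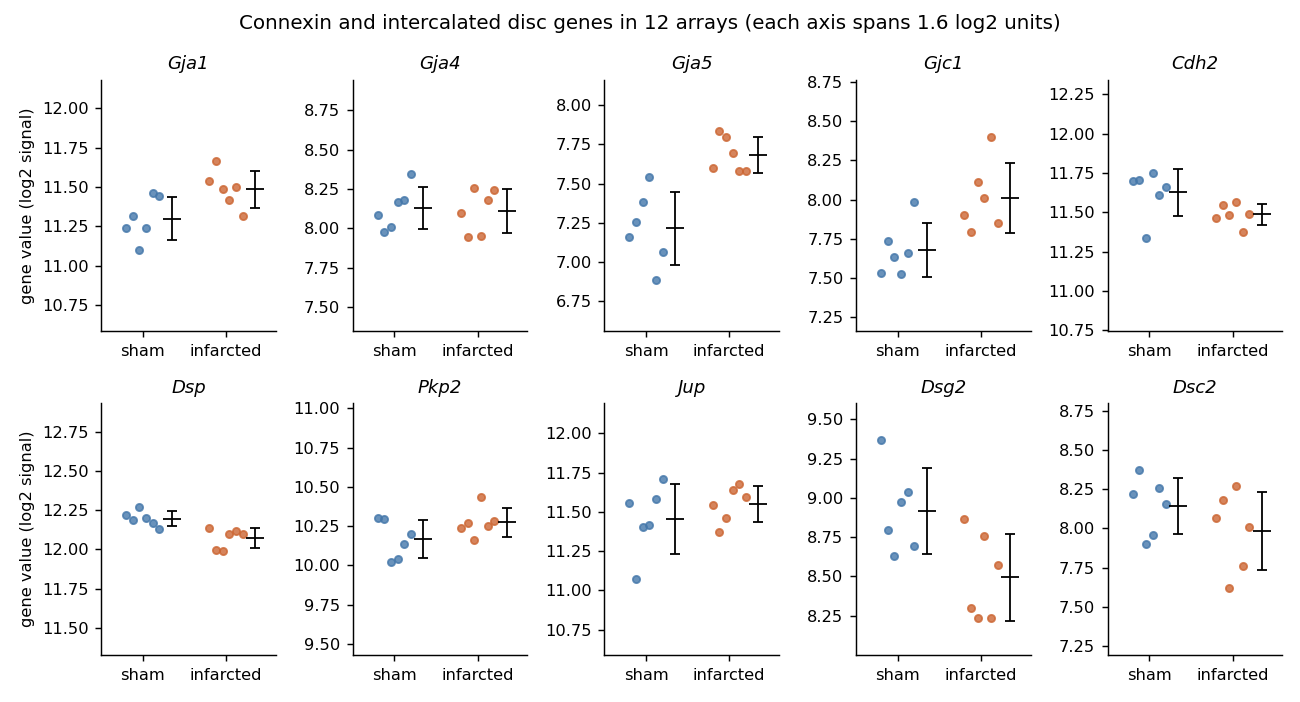
Gene-level log2 signal of each of the 10 genes on each of the 12 arrays, sham (n = 6) beside infarcted (n = 6), with the mean and SD as bars. Each axis spans the same log2 range but starts at its own level, and only the Gja5 panel has groups that do not overlap.

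Gja1 RNA was not lower in the border zone. It lay at 11.10 to 11.46 with a median of 11.28 in sham hearts and at 11.31 to 11.66 with a median of 11.49 in infarcted hearts. The groups overlapped, with 4 of 6 infarcted arrays above the highest sham array and all 6 above the sham mean. The log2 change was 0.19 ± 0.08 (SE, n = 6 per group), or 1.14-fold with a 95% interval of 1.01 to 1.28, at an adjusted p of 0.122 and an unadjusted p of 0.0352. All 4 probesets of the gene were higher, by 0.15 to 0.27. Its call depended on the scale, since the adjusted p was 0.0481 when probesets were averaged by their mean and 0.0114, for a change of 0.29, relative to the heart muscle cell genes. The mean over probesets called 5674 of all genes, against 4124 with the median. Fibroblasts also make connexin 43, and their markers rose as given above. Their part in the Gja1 value was not tested.

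Gja5 rose, and its groups did not overlap. The sham arrays held 6.89 to 7.54 with a median of 7.21, and the infarcted arrays 7.58 to 7.84 with a median of 7.65. Groups did not overlap for 11.3% of all genes, of which the part wholly above sham was 5.97% of all genes and the part wholly below 5.29%. The log2 change was 0.47 ± 0.10 (SE, n = 6 per group), or 1.38-fold (95% interval 1.19 to 1.61), at an adjusted p of 0.00506. The gene value of each array was that of the third of its 3 probesets. The second probeset rose by 0.64 (adjusted p 0.00163 over all probesets), from 6.25 to 6.79 in sham to 7.08 to 7.32 in infarcted hearts. The first changed by 0.30 (adjusted p 0.450), a value that rests on infarcted replicate 3, without which it was 0.09. A pair of further probesets shared with Zfp697 were left out.

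Connexin 40 marks several tissue parts, so their markers are given beside it. Over all genes, 10.1% were called higher and 10.2% lower, and groups did not overlap for 11.3%. Of 8 atrial markers 2 rose (Dkk3 by 1.59 and Pam by 0.53), 2 fell (Tbx5 fell by 0.68 and Stard10 fell by 0.85) and 4 did not pass. The groups of each of those that passed did not overlap. The mean level of the list was 7.17 to 7.69 in sham and 7.15 to 8.48 in infarcted hearts. With infarcted replicates 4, 5 and 6 left out, which stood apart in Sln and Myl4, the Gja5 change was 0.53 (adjusted p 0.0309), a split made after seeing the data. Among sham arrays, replicate 4 was the highest in Gja5 (7.54) and also in Sln (5.02), Myl7 (7.24) and Myl4 (8.95). Of 10 arterial endothelial markers 4 rose, and their mean level was 7.57 to 7.72 in sham and 7.78 to 7.98 in infarcted hearts, while 1 of 10 markers of endothelium at large rose, with mean levels of 9.64 to 9.92 and 9.69 to 10.03. Of 10 conduction system markers listed, 9 were measured. Among these none rose and 1 fell, with mean levels of 6.72 to 6.81 in sham and 6.52 to 6.74 in infarcted hearts. What atrial, arterial or conduction tissue contributed to the Gja5 rise was not tested.

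**Figure D2:**
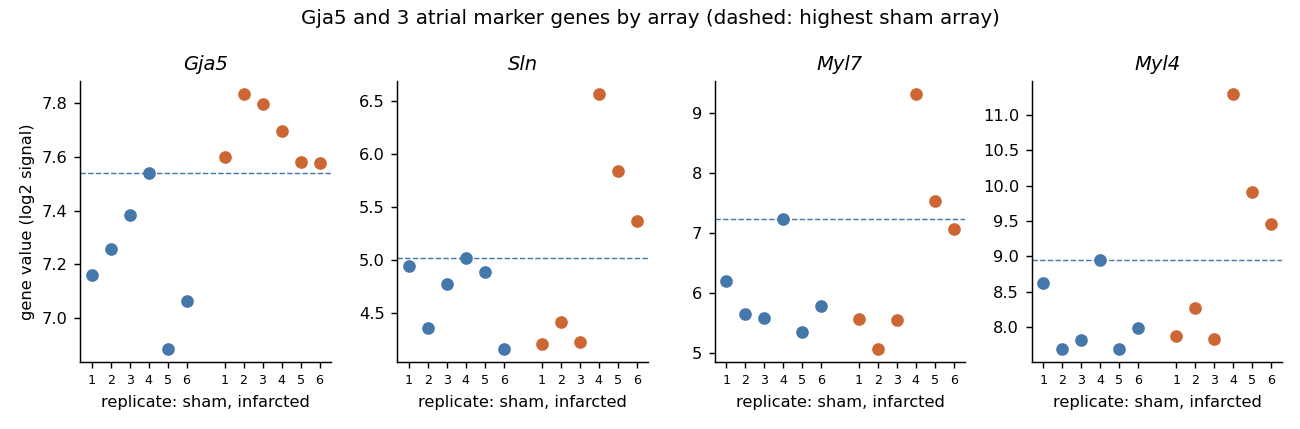
Log2 signal of Gja5 and of Sln, Myl7 and Myl4, 3 of 8 atrial markers, on each array, with replicate numbers on the horizontal axis and a dashed line at the highest sham value. All 6 infarcted replicates lie above the line for Gja5. For the 3 atrial genes, singled out after their values were seen, infarcted replicates 1, 2 and 3 lie below it. Replicates 4, 5 and 6 lie above it, except replicate 6 in Myl7. The line is at the value of sham replicate 4 in every panel.

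Gja4 encodes connexin 37, which Gja5 accompanies in arterial endothelium. It lay at 7.98 to 8.35 with a median of 8.13 in sham hearts and at 7.94 to 8.26 with a median of 8.14 in infarcted hearts, so the groups covered nearly the same range. The log2 change was -0.02 with a 95% interval of -0.20 to 0.16 (adjusted p 0.922). The direct difference from the Gja5 change was not tested.

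Gjc1, a connexin of the early heart, the nodes and vascular smooth muscle, rose at the edge of the threshold. Sham hearts held 7.53 to 7.99 with a median of 7.65, and infarcted hearts 7.79 to 8.40 with a median of 7.96. The groups overlapped, with 3 infarcted arrays above the highest sham array and all 6 above the sham mean. The change was 0.33 ± 0.11 (SE, n = 6 per group), or 1.26-fold (95% interval 1.07 to 1.48), at an adjusted p of 0.0433. Of its 5 probesets 4 were higher and none was called singly. The call was kept only when sham replicate 6 or infarcted replicate 1, 2 or 6 was left out, and was lost without any of the other 8 arrays. Over all 12 fits without 1 array the change was 0.25 to 0.39 and the adjusted p 0.0183 to 0.0911. The call was also lost in 7 of 11 other settings, among them the mean over probesets (0.22, adjusted p 0.0713). Smooth muscle and pericyte markers rose for 6 of 11 genes, with mean levels of 8.74 to 9.07 in sham and 9.19 to 9.36 in infarcted hearts, and their part in the Gjc1 value was not tested. The highest Gjc1 value, 8.40, was in infarcted replicate 5, which also had the highest mean level of adipocyte markers, 8.40 against at most 6.77 in the other arrays, and of mesothelial markers, 6.51 against at most 5.96. Without it the Gjc1 change was 0.25 (adjusted p 0.0839), and the part of those cells was not tested.

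Whether the connexins moved by different amounts was tested within each array, where a shared brightness cancels. Gja1 minus Gja5 shifted by -0.28 between the groups (exact permutation p 0.0887, adjusted over the 3 differences computed 0.133). Gja1 minus Gjc1 shifted by -0.15 (exact p 0.249, adjusted 0.249). Neither passed, so a larger change of Gja5 or Gjc1 than of Gja1 was not shown, and neither was an equal one. The Gja5 difference did pass without sham replicate 3 or 4, at shifts of -0.35 and -0.36 (adjusted p 0.0422 and 0.0325), and with centred probesets (-0.25, adjusted p 0.026). Gja1 minus Cdh2 shifted by 0.33, with 5 of 6 infarcted arrays above the highest sham array (exact p 0.00433, adjusted 0.013). The RNA of connexin 43 thus shifted upward relative to that of the adherens cadherin, although neither passed the threshold by itself. With infarcted replicates 4 and 5 left out the shift was again 0.33, with an adjusted p of 0.0571.

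Cdh2 is N-cadherin, the adhesion molecule of the adherens junction, on which the disc and its gap junctions are built. It ranged from 11.34 to 11.75 with a median of 11.68 in sham hearts and from 11.37 to 11.56 with a median of 11.49 in infarcted hearts. The infarcted arrays all lay below the sham mean but within the sham range, because sham replicate 3 was far below the other 5. The change was -0.14 (95% interval -0.30 to 0.02, adjusted p 0.228), and without sham replicate 3 it was -0.20 (adjusted p 0.0462). Of its 18 probesets 17 were lower, none of them past the threshold.

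The desmosome is made of cadherins of 2 kinds, desmogleins and desmocollins, which plakoglobin (Jup) and plakophilin (Pkp2) couple to desmoplakin (Dsp), the link to desmin. Of these 5 genes, 1 passed the test: Dsg2, the desmoglein of heart muscle, fell. Sham hearts held 8.63 to 9.37 with a median of 8.89, and infarcted hearts 8.23 to 8.87 with a median of 8.43. The groups overlapped, with 4 infarcted arrays below the lowest sham array. The log2 change was -0.42 ± 0.14 (SE, n = 6 per group), or 1.34-fold lower (95% interval 1.085 to 1.66), at an adjusted p of 0.0498, which is close to the threshold. It was called without sham replicate 3 or 6 or infarcted replicate 1 or 4 and lost without any of the other 8 arrays. Over all 12 fits without 1 array the change was -0.50 to -0.33 and the adjusted p 0.0235 to 0.107. The call was also lost in 4 of 11 other settings, among them centring on the heart muscle cell genes (-0.32, adjusted p 0.12).

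Single probesets of Dsg2 moved together. All 18 lay lower in the infarcted group, by 0.09 to 0.64 (lowest change -0.64, highest -0.09, median -0.52), and 9 of them were called lower, where 4.3% of all probesets were called lower and 10.7% in all. Probesets of a gene share the RNA of each array and are not replicates. Their mean levels ran from 2.50 to 10.03, and the median over them can pass from one probeset to another between arrays. A setting added after seeing the data first centred each probeset on its own mean over the 12 arrays. With it, Dsg2 changed by -0.52 (adjusted p 0.000102) and its groups did not overlap. The groups of Gja5 and Dsp did not overlap in that setting either, and the share over all genes was not taken. Centred probesets called 5739 of 20352 genes, against 4124 with probesets as they stand.

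**Figure D3:**
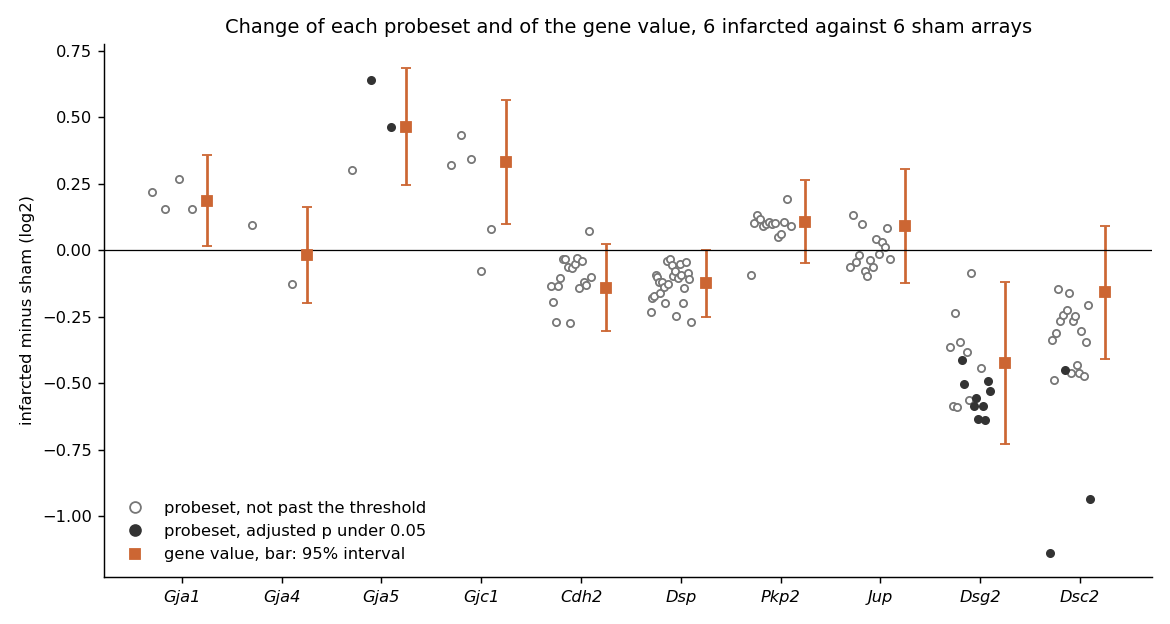
Log2 change (infarcted minus sham) of each of the 125 probesets, grouped by gene, filled where the adjusted p over all probesets is under 0.05, with the gene value and its 95% interval as a square. All probesets of Dsp, Dsg2 and Dsc2 lie below 0, and the filled points are 9 of Dsg2, 3 of Dsc2 and 2 of Gja5.

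Dsc2, the desmocollin of heart muscle, depended on how its 20 probesets were joined and on the scale. Its gene value was 7.90 to 8.37 with a median of 8.19 in sham hearts and 7.62 to 8.27 with a median of 8.04 in infarcted hearts, so the groups overlapped widely. The change was -0.16 (95% interval -0.41 to 0.09, adjusted p 0.393). All 20 probesets were lower in infarcted hearts, from -1.14 to -0.14 with a median of -0.32, and 3 passed singly. The largest of these changes, one of the 3, was in a dim probeset at 4.39 in sham and 3.25 in infarcted hearts, under the limit of 5.58. The next largest was -0.93, and the remaining probeset that passed changed by -0.45. The Dsc2 change was -0.39 (adjusted p 0.00489) with the mean over probesets and -0.34 (adjusted p 0.0117) with centred probesets. It was -0.16 (adjusted p 0.307) with dim probesets left out and -0.05 (adjusted p 0.787) relative to the heart muscle cell genes. The mean over probesets called 5674 of all genes and centred probesets 5739, against 4124 in the reported fit. With centred probesets the sham arrays ran from 0.00 to 0.32 and the infarcted arrays from -0.43 to 0.10, with some overlap.

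**Figure D4:**
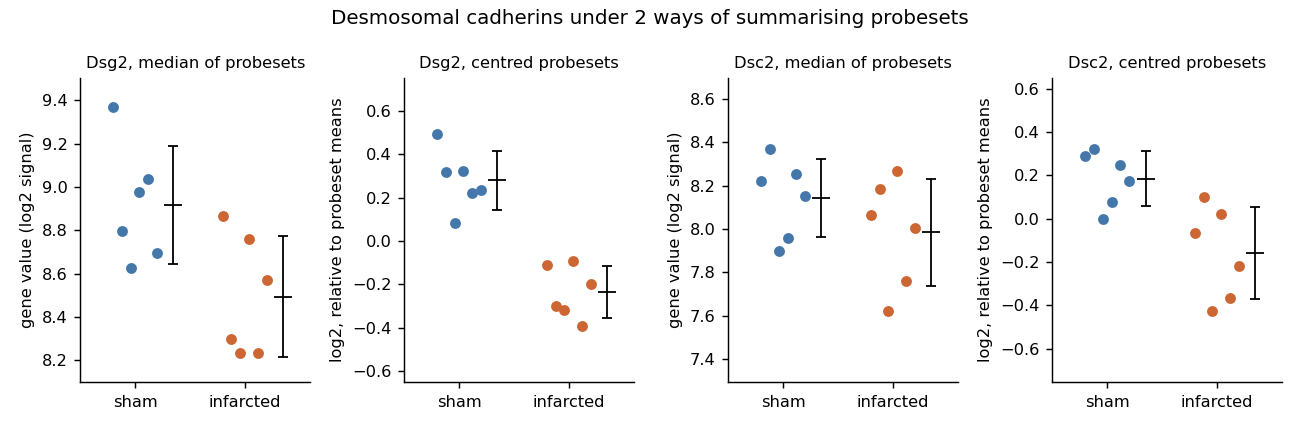
Dsg2 and Dsc2 on each array, as the median over probesets as they stand and as the median over probesets centred on their own means, in log2 units. The Dsg2 groups separate with centred probesets, and those of Dsc2 overlap in both summaries.

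Dsp was slightly lower in nearly every reading without passing the threshold. Sham hearts held 12.13 to 12.27 with a median of 12.19, and infarcted hearts 11.99 to 12.14 with a median of 12.10. All but 1 of the infarcted arrays lay below the lowest sham array. The change was -0.12 (95% interval -0.25 to 0.00, adjusted p 0.160), and all 26 probesets were lower, by at most 0.27 (lowest change -0.27, highest -0.03), with none past the threshold. It passed when probesets were averaged by their mean (-0.13, adjusted p 0.0485) and with eBayes set to trend and robust (adjusted p 0.0387). Relative to the heart muscle cell genes, in contrast, Dsp changed by only -0.02 (adjusted p 0.879). The mean over probesets called 5674 of all genes and eBayes with trend and robust 4417, against 4124 in the reported fit.

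Pkp2 and Jup, which sit on the inner side of the desmosome, did not pass. Pkp2 lay at 10.02 to 10.30 with a median of 10.17 in sham hearts and at 10.16 to 10.44 with a median of 10.26 in infarcted hearts, a change of 0.11 (95% interval -0.05 to 0.26, adjusted p 0.345). The groups overlapped, and 13 of 14 probesets were higher. Jup lay at 11.07 to 11.71 with a median of 11.49 in sham and 11.37 to 11.68 with a median of 11.57 in infarcted hearts, so the infarcted range fell inside the sham range. Its change was 0.09 (95% interval -0.12 to 0.31, adjusted p 0.578), and its 15 probesets were split, 6 higher and 9 lower.

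Over the 125 probesets, 93 were lower and 32 higher in infarcted hearts, and the share over all probesets was not taken. Cdh2, Dsp, Dsg2 and Dsc2, which have many probesets, gave 17, 26, 18 and 20 of the lower ones. Those called were 12 lower, 9 of Dsg2 and 3 of Dsc2, and 2 higher. Of all probesets, 4.3% were called lower and 6.39% higher. Probesets of a gene are not replicates, and the pooled counts are no result about the 10 genes. Without sham replicate 4 the count called lower was 7. No gene of the 10 showed unequal change of its probesets by limma's diffSplice, a test that 9.34% of 15004 genes passed. None of the 10 had an unadjusted p under 0.05 there, and the smallest was 0.0529, for Gjc1.

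The other genes of the same structures were read from lists of gap junction, desmosome, adherens junction, cadherin, filament and channel genes. These lists were chosen with earlier results of these data known, so their counts are descriptions. Over all genes 10.1% were called higher and 10.2% lower. Among 14 other gap junction genes measured, of 19 listed, 1 rose and 2 fell, with a median change of -0.14. Panx1, which forms single-membrane channels that release ATP, rose from 6.11 ± 0.32 to 7.47 ± 0.16 (SD, n = 6 per group), or 2.57-fold (adjusted p 7.41e-06). Gja3, connexin 46, fell by 0.23 on the log2 scale (adjusted p 0.0346). Gje1 fell by 0.40 (adjusted p 0.0464) from a sham mean of 4.69, below the limit of 5.58 taken as dim, and its change was -0.06 with dim probesets left out. Both falls were at the edge, and leaving out 1 array ended the Gja3 call in 8 of 12 cases and the Gje1 call in 9.

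Among 12 other desmosome genes none rose and 1 fell, with a median of -0.06. That gene was Ppl, periplakin, which ties filaments to desmosomes in epithelia and fell from 6.98 ± 0.15 to 6.03 ± 0.15 (SD, n = 6 per group), or 1.93-fold (adjusted p 4.93e-06). Among 10 other cadherins 2 rose and 2 fell, with a median of -0.01. Cdh11, the cadherin of fibroblasts and other mesenchymal cells, rose 2.76-fold (log2 change 1.46, adjusted p 1.46e-05), and Cdh3, P-cadherin, by 0.76 (adjusted p 0.00696). Cdh4, R-cadherin, fell by 0.70 (adjusted p 0.000352), and Cdh22 fell by 0.47 (adjusted p 0.0149). With dim probesets left out, Cdh22 changed by -0.13 (adjusted p 0.432) and Cdh3 by 0.58 (adjusted p 0.0514). The fibroblast markers that rose beside Cdh11 are given above, and their part in it was not tested.

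Adherens junction and area composita partners, the mixed junctions of the mature disc, had 5 higher and 2 lower of 21 measured, with a median of -0.01. Their list held 22 genes. Xirp2, an actin-binding disc protein, rose by 0.84 (adjusted p 1.82e-05), Tmem43, a membrane protein mutated in arrhythmogenic cardiomyopathy, by 0.54 (adjusted p 0.00077) and Afdn, the actin linker afadin, by 0.41 (adjusted p 0.0019). Tmem65, a disc protein bound to connexin 43, fell by 0.32 (adjusted p 0.00743), and Ctnna3, alpha-T-catenin of the area composita, fell by 0.34 (adjusted p 0.0214). Relative to the heart muscle cell genes neither fall passed (adjusted p 0.0526 for Tmem65 and 0.0937 for Ctnna3). The partners of these junctions did not move in 1 direction.

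Of 9 intermediate filament genes and linkers 3 rose and none fell, with a median of 0.11. Vim, the filament of mesenchymal cells, rose by 0.63 (adjusted p 6.79e-05), Krt18, a keratin of simple epithelia, by 0.82 (adjusted p 0.000217) and Lmna, lamin A/C of the nucleus, by 0.52 (adjusted p 0.000747). Of 12 channels and scaffolds held at the disc that were listed, 9 were measured. Among these none rose and 6 fell, with a median of -0.41, where 10.2% of all genes were called lower. Scn4b, a beta subunit of the cardiac sodium channel, fell by 1.64, or 3.13-fold (adjusted p 2.65e-05), Kcnd2, a channel of the transient outward current, fell by 0.85 (adjusted p 0.000266) and Ank2, ankyrin B, fell by 0.41 (adjusted p 0.000878). These falls are of RNA in mixed tissue in which fibroblast and macrophage markers rose, and the part of cell composition in them was not tested.

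**Figure D5:**
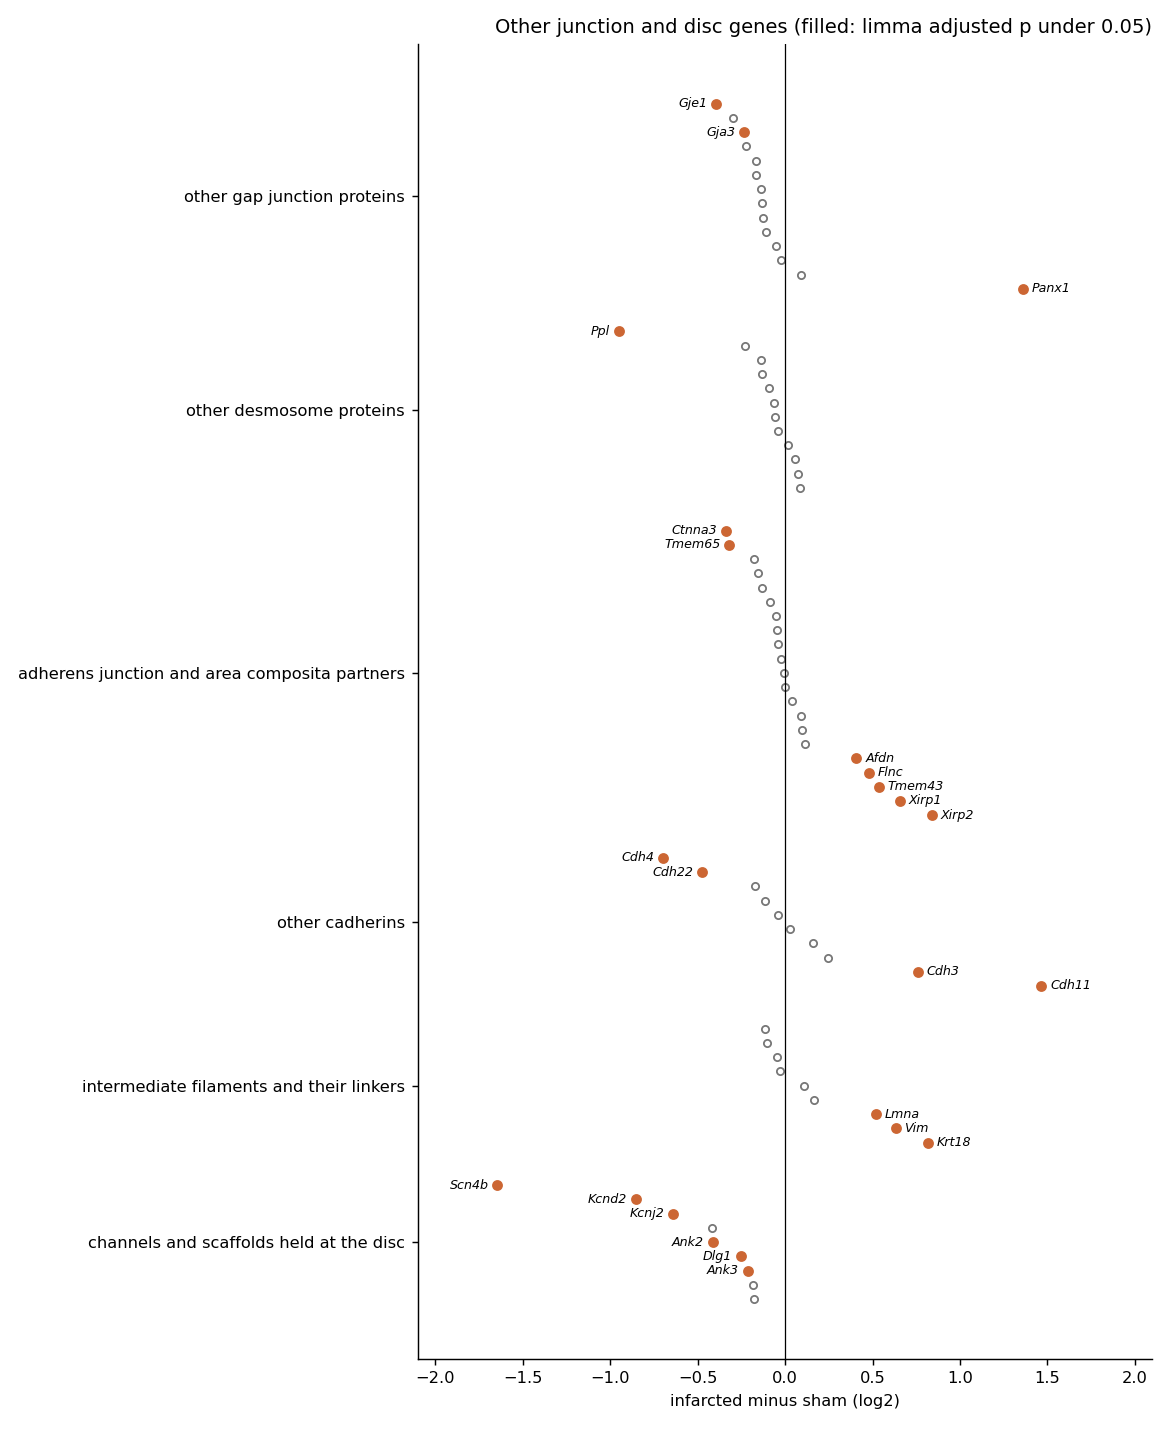
Log2 change (infarcted minus sham) of each gene of the 6 partner lists, filled where the adjusted p over all genes is under 0.05, with the names of the filled genes. The channel list has its 6 filled points below 0, and the filament list its 3 above.

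The genes whose deviations from the group means most resembled those of the connexins over the 12 arrays were, for Gja1, Impdh1 (Pearson r 0.891), Tmem95 (0.886) and Proser2 (0.883). For Gja5 they were Zswim8 (r 0.924), Exosc7 (0.906) and Anp32a (0.897), and for Gjc1 Pkhd1l1 (0.909), Dynlt1 (0.897) and Vit (0.874). They are the highest of 13472 genes compared, over arrays that share their processing, and serve as a description. How high an r the top genes of so many reach by chance over 12 arrays was not tested.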

How the data were processed

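Border zone RNA was measured on 12 one-colour arrays, extracted with Trizol and labelled with biotin after a whole-transcript kit, per the labels' protocols. Affymetrix Power Tools is the tool in the submitters' processing notes. The deposited values are read as log2 from their range, with the base unstated, and a fold rests on that reading. How signals were summarised and normalized is not given in the sources used here.

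Genes were named from the 212097 probesets with exactly 1 symbol in the platform annotation, updated through RefSeq synonyms (4475 had several symbols, 25004 none). A gene's value was the median over its probesets, with no filter on dim signal. Groups came from sample titles. All 20352 genes, and separately all probesets, were fitted with limma 3.58.1 in R 4.3.3 (lmFit, eBayes, two-sided, Benjamini-Hochberg, threshold 0.05). For diffSplice, probesets whose mean lay below 5.58 (the 30th percentile) were dropped. Within-array differences used an exact permutation test over 924 arrangements, two-sided. The smallest p it can give is 0.00216. Scripts were tested on simulated data. Figures were drawn with matplotlib 3.10.9. No batch or date is labelled.

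The 10 genes and the lists (6 of partners, 10 of cell types) were chosen with earlier results of these data known. From each partner list the text names up to 3 genes past the threshold in each direction, by smallest p. The alternatives were the mean over probesets, dim probesets left out, arrays centred on medians or heart muscle cell genes, quantile normalization, eBayes with trend and robust, a replicate block, platform symbols as they stand, each array left out, infarcted replicates 4 and 5 left out, and 2 added after seeing the data (centred probesets, infarcted replicates 4, 5 and 6 left out). Replicate numbers 1 to 6 occur in both groups, and no label ties them. Marker lists not counted in the report gave these results: of 8 mesothelial markers 0 rose or fell by limma (median 0.14) and of 8 adipocyte 0 (median 0.52, with mean levels up to 8.40 in infarcted hearts against 6.11 in sham).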

Additional observations from a re-analysis of the deposited data

Results flagged for a closer look

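Of 30 groups of 6 arrays examined for a far-lying array, 2 held one, and chance alone gives about 1 in 20. In Cdh2, sham replicate 3 lay at 11.34 on the log2 scale against 11.61 to 11.75 for the other sham arrays. In the first probeset of Gja5, infarcted replicate 3 lay at 10.88 against 9.28 to 9.81 for the other infarcted arrays, while the other probesets of the gene did not single it out.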

How the results depend on the processing

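Gja5 stayed above the threshold in each fit without 1 array and in the 11 other settings (adjusted p 0.000111 to 0.0309). None of the 10 genes and 19 named partner genes changed direction where called, in the settings run for them. Among the 10 genes the number called higher, 2 as reported, was 1 with arrays centred on their medians, quantile normalization, the replicate block, infarcted replicates 4 and 5 left out, centred probesets, or infarcted replicates 4, 5 and 6 left out, each time without Gjc1, and 3 relative to the heart muscle cell genes, with Gja1. With the mean over probesets Gjc1 was lost too (0.22, adjusted p 0.0713) and Gja1 gained. The number called lower, 1 as reported, was 3 with the mean over probesets, 2 with eBayes trend and robust, 2 with centred probesets, and 0 with dim probesets left out, with centring on the heart muscle cell genes, or with infarcted replicates 4 and 5, or 4, 5 and 6, left out. Without 1 array these counts ran from 1 to 2 and from 0 to 2, and all called genes from 3454 to 4138. With infarcted replicates 4, 5 and 6 left out, 2160 genes were called, in a fit with fewer arrays.

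Called probesets of the 10 genes, 2 higher and 12 lower, were 1 and 7 with infarcted replicates 4 and 5 left out, 1 and 3 with 4, 5 and 6 left out, and 2 to 3 and 7 to 13 without 1 array. Lower gap junction genes, 2 as reported, were 1 with dim probesets left out, 0 to 1 without 1 array, and 0 relative to the heart muscle cell genes, with the replicate block and in both sets of fewer infarcted arrays. Lower adherens partners, also 2, were 0 relative to the heart muscle cell genes, 1 without infarcted replicates 4 and 5 and 0 without 4, 5 and 6. Higher cadherins, 2, were 1 with dim probesets left out and without infarcted replicates 4, 5 and 6, and lower cadherins, 2, were 1 in those settings, relative to the heart muscle cell genes and without infarcted replicates 4 and 5. Lower disc channels, 6, were 3 without infarcted replicates 4, 5 and 6. The cause of these moves was not tested, and the fits that left out infarcted replicates also held fewer arrays.

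Without 1 array, Gja1 minus Gja5 shifted by -0.36 to -0.18, Gja1 minus Gjc1 by -0.22 to -0.07 and Gja1 minus Cdh2 by 0.29 to 0.36. Gja1 minus Gja5 was -0.25 with centred probesets (adjusted exact p 0.026). Gja1 minus Cdh2 was 0.33 without infarcted replicates 4 and 5 (adjusted exact p 0.0571) and 0.33 with the replicate block (adjusted exact p 0.0938), where 0.0313 is the smallest unadjusted p that can arise. Same-numbered arrays correlated at -0.05 to 0.10 and only numbers 1 and 4 matched best, so the numbers were not read as pairs. Under the replicate block Gjc1 had an adjusted p of 0.0754 and Dsg2 of 0.0151. The standard errors of the 10 genes ran from 0.06 (Dsp) to 0.14 (Dsg2), which limits what 6 arrays a group could separate.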
